A study of Mus musculus with 4 samples.

Results

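Mitochondria make only a handful of their own proteins, and nearly all others are imported from the cytosol. Precursors enter through the TOM complex of the outer membrane. They are then passed on by small TIM chaperones of the intermembrane space, or threaded into the inner membrane and matrix by the TIM22 and TIM23 complexes. Small metabolites cross the inner membrane through a separate family, the SLC25 carriers, each of which exchanges or transports particular nucleotides, amino acids, organic acids, cofactors or ions. Activated T lymphocytes are known to enlarge their mitochondria and to change what these organelles take up and release. The transcripts of both systems were followed here in NKT cells (natural killer T cells), a lymphocyte type whose receptor recognises lipids held by CD1d.

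The members were all symbols of the deposited count table that begin with Timm, Tomm or Slc25a followed by a number. There were 59 of them among 12020 genes analysed: 23 translocase genes (9 Tomm and 14 Timm) and 36 carrier genes. The choice went by gene names, but earlier results of these data were known when it was made. In all, 58 of the 59 passed the filter on low counts and were tested, and Slc25a29, a carrier of basic amino acids, did not. Its CPM were 3.94 and 1.71 at rest and 2.05 and 1.62 after stimulation (CPM, counts scaled to a common library size by TMM, which corrects for differences in library composition). Other genes of these families, such as Timm29, Tomm20l and Slc25a31, were not in the table under these symbols and were not analysed as members. The table holds no count below 1, and whether genes without reads in a library were left out cannot be told from it.

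The study compared resting NKT cells with NKT cells stimulated on plates coated with mCD1d-PBS57 tetramers, in 2 libraries each. Both groups came from C57BL/6 mice aged 10 to 12 weeks that carried the Va14 receptor transgene and 1 cxcr6 allele replaced by gfp, and cells were sorted for a high GFP signal. Liver is the labelled tissue, but the sorting protocol also mentions spleens and the extraction protocol mentions islets. The duration of stimulation is not stated in the labels. They do not say either whether libraries of 1 group stem from different mice, so the spread behind each p-value may be purely technical. Libraries are called by the numbers in the table's column names, 4 and 5, which are not those of the sample titles.

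The libraries held 4168438 to 5495521 counts. All 11 listed T and NKT cell markers were in the table, with a summed level of 3755 and 3963 CPM at rest and 3041 to 3954 CPM after stimulation. Of these markers 2 were called lower and 0 higher. The summed levels of other cells' markers were lower after stimulation. Called lower were 2 of 4 hepatocyte, 2 of 6 macrophage and monocyte, 2 of 8 B cell and 1 of 2 CD8 T cell markers. So were 2 of 2 granulocyte and mast cell markers, 3 of 3 red cell markers and Pecam1. Of the B cell markers 1 was called higher, and no other list had such a call. Of all tested genes 12.1% were called lower and 14.3% higher. B cell markers (8 of 10 listed in the table) summed to 153 to 230 CPM at rest and 108 to 118 after stimulation, and hepatocyte markers (4 of 12, without Alb and Apoa1) to 64.0 to 74.2 and 35.0 to 50.7 CPM. Macrophage and monocyte markers (6 of 11, without Lyz2 and C1qa) summed to 66.3 to 79.5 CPM at rest and 22.1 to 36.2 after stimulation, and red cell markers (3 of 4) to 89.9 to 247 and 19.2 to 45.9 CPM. CD8 T cell markers (2 of 2) summed to 35.2 to 67.3 CPM at rest and 12.3 to 17.4 after stimulation, and granulocyte and mast cell markers (2 of 8, without Mpo and Elane) to 18 to 19.5 and 1.84 to 3.24 CPM. The 1 of 9 endothelial and stellate cell markers in the table, Pecam1, was at 28.8 to 75.0 and 10.2 to 15.8 CPM. Whether these cells had a part in the values below was not tested, and in bulk RNA a smaller number of cells of a type cannot be told apart from less RNA per cell. Unless another method is named, p-values are from edgeR's quasi-likelihood test, adjusted by the Benjamini-Hochberg method over the genes tested in each fit. The main fit tested 11312 genes, and a gene was called at an adjusted p below 0.05.

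Translocase transcripts were mostly higher after stimulation, whereas carriers went both ways. Of 23 translocases 10 rose and 1 fell, which is 43.5% and 4.35%, where 14.3% of all tested genes rose and 12.1% fell. Of 35 tested carriers 7 rose (20%) and 3 fell (8.57%). The median log2 fold change, tetramer over resting, was 1.17 for translocases, 0.19 for carriers and -0.06 for all tested genes. The difference between the classes is a description, since genes are not replicates of a condition.

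Both tetramer libraries lay above both resting libraries for 17 of 23 translocases and for 13 of 35 carriers, against 31.6% of all tested genes. They lay below for 1 translocase and 9 carriers, against 33.7% of all tested genes. Summed over the class, translocases were at 1225 and 1301 CPM in resting libraries 4 and 5 and at 2800 and 2022 CPM in tetramer libraries 4 and 5. Carriers summed to 1443 and 1340 CPM at rest and to 2622 and 1850 CPM after stimulation. Abundant genes weigh most in such a sum, and the carriers' median log2 CPM was 3.76 and 3.34 at rest and 3.8 and 3.61 after stimulation, where that of translocases was 4.74 and 4.90 and then 6.52 and 6.07. Tetramer library 4 was thus the higher of the stimulated pair by both measures in both classes.

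**Figure D1:**
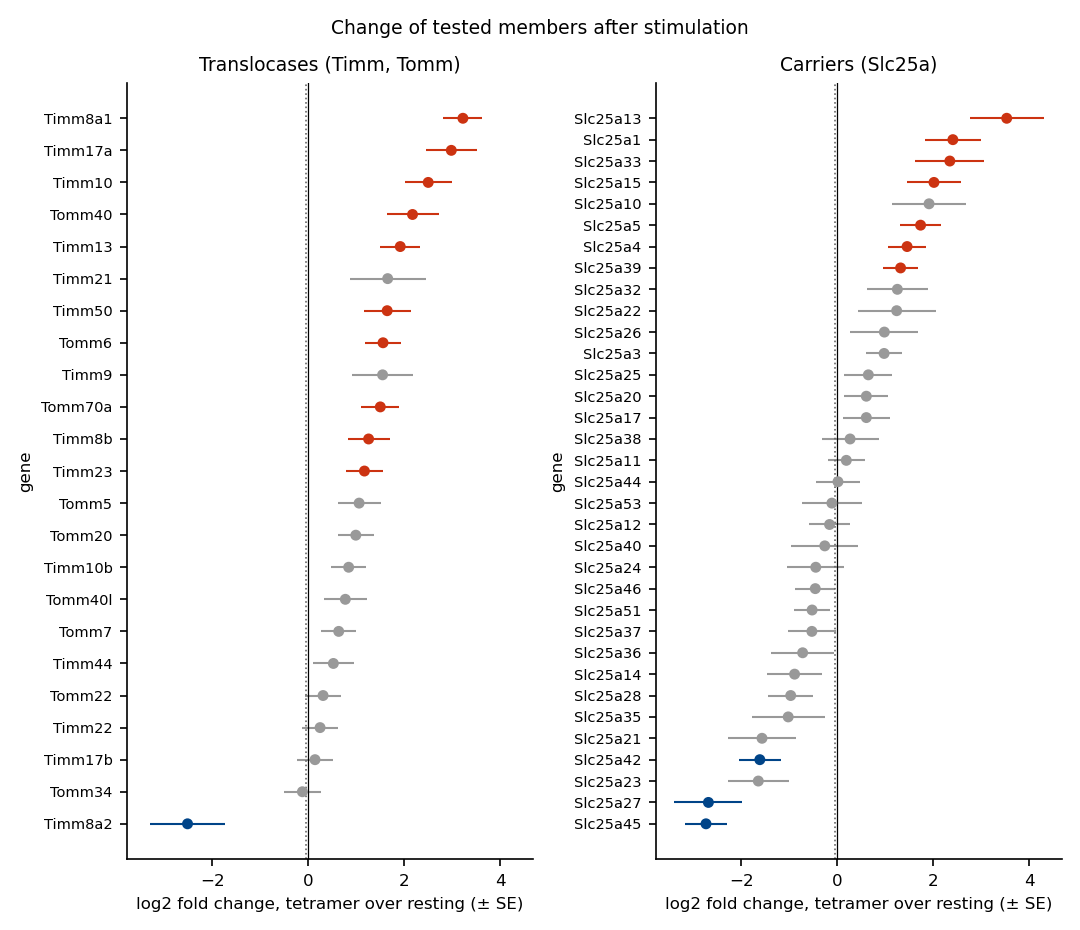
Log2 fold change (tetramer over resting) with its standard error for the 23 tested translocases (left) and the tested carriers but 1 (right), with red for called higher, blue for called lower, grey for not called, and a dotted line at the median of all tested genes. All translocases but Tomm34 and Timm8a2 lie above 0 (with library totals Tomm22, Timm22 and Timm17b turn below it too), while carriers spread to both sides, from -2.74 (Slc25a45) to 3.53 (Slc25a13).

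The calls rested strongly on tetramer library 4. Without it, the translocases Timm8a1, Timm10, Timm13 and Timm17a still rose and Timm8a2 was not called, 1 carrier rose (Slc25a4) and 1 fell (Slc25a45), while of all genes 5.33% rose and 2.68% fell. With library totals in place of TMM scaling the median of all genes moved to -0.35 and their calls to 10.5% higher and 19.9% lower, with 8 translocases higher and 1 lower, and 7 carriers higher and 6 lower. The carriers' median was -0.10 with library totals and -0.08 without tetramer library 4, so its sign was not stable, while that of translocases was 0.87 and 0.83.

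**Figure D2:**
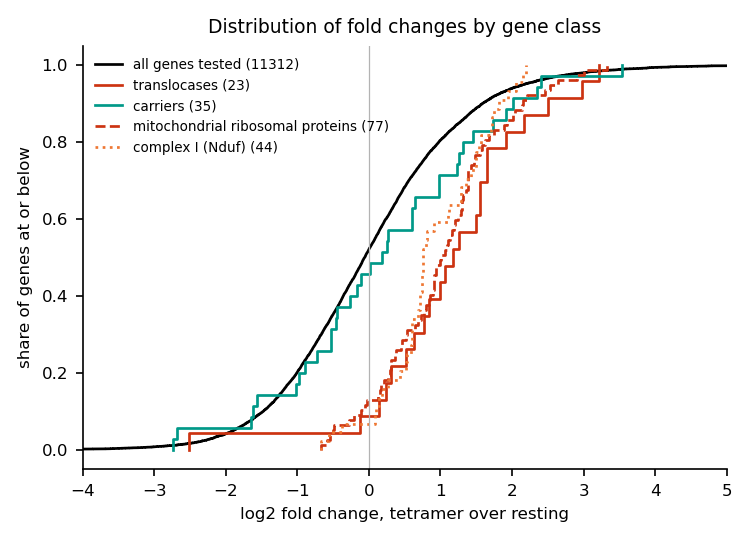
Cumulative share of genes (y) at or below each log2 fold change (x) for all 11312 tested genes, translocases, carriers, mitochondrial ribosomal proteins and complex I genes, with the number of genes in parentheses. The translocase line (median 1.17) runs near that of mitochondrial ribosomal proteins (median 1.01), and the carrier line (median 0.19) stays closer to that of all genes.

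Among genes of neighbouring mitochondrial systems, 37 of 77 mitochondrial ribosomal proteins rose (48.1%), with a median log2 fold change of 1.01. Of 44 complex I subunits and assembly factors 17 rose (38.6%), with a median of 0.76. Of all tested genes 14.3% rose and 12.1% fell. In both lists 0 fell by edgeR, by DESeq2, by limma-voom and at an unadjusted p below 0.05. At that unadjusted threshold 2169 of all 11312 tested genes were lower. Without tetramer library 4 fewer genes of both lists were called higher, as over all genes.

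The TOM complex is the entry gate, made of the channel Tomm40, the receptors Tomm20, Tomm22 and Tomm70a, and the small subunits Tomm5, Tomm6 and Tomm7. Of 9 Tomm genes 3 rose and 0 fell (0 also by DESeq2, by limma-voom and at an unadjusted p below 0.05). The 3 are 33.3%, where 14.3% of all tested genes rose and 12.1% fell. At an unadjusted p below 0.05, 5 Tomm genes were higher. Of the 11312 tested genes 2203 were higher and 2169 lower at that unadjusted threshold. Without tetramer library 4 no Tomm gene was called. Tomm40, which forms the pore, was at 5.18 and 13 CPM at rest (libraries 4 and 5, in this order throughout) and at 59.5 and 22.7 CPM after stimulation. Every tetramer value lay above every resting value, although the stimulated libraries differed widely. The rise was 4.51-fold (log2 fold change 2.17 ± 0.54 SE, adjusted p = 0.00435), and 1.33 on the log2 scale without tetramer library 4 (adjusted p = 0.280).

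Tomm70a, the receptor that takes carrier precursors from cytosolic chaperones, had close values within each group. It was at 32.9 and 29.5 CPM at rest and at 91.5 and 85.4 CPM after stimulation, a 2.83-fold rise (1.5 ± 0.39, adjusted p = 0.00624). The change without tetramer library 4 was about as large, at 1.47, but no longer called (adjusted p = 0.0752). Tomm6, a small subunit that steadies the complex, went from 64.8 and 86.8 CPM to 280 and 166 CPM, a 2.94-fold rise (1.56 ± 0.38, adjusted p = 0.00401), and was at 1.15 without tetramer library 4 (adjusted p = 0.148). Exons of Tomm6 overlap those of Gm21981 on the same strand, so these reads cannot be told apart, and those of Usp49 and Tomm6os on the other. Exons of Tomm70a (with Nit2) and Tomm40 (an antisense gene) overlap on the other strand, where reads can be told apart only if strand was counted.

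The general receptor Tomm20 missed the threshold narrowly, at 128 and 94.2 CPM against 276 and 166 CPM (0.99 ± 0.38, adjusted p = 0.0524). It was called without resting library 4 (1.24, adjusted p = 0.0464), on omitting tetramer library 5 (1.32, adjusted p = 0.0448), with DESeq2 size factors and with the stricter filter. Tomm20 has 4 pseudogenes that share its sequence. Tomm5 was at 42.7 and 26.1 CPM against 103 and 40.1 CPM (1.06 ± 0.45, adjusted p = 0.0777), with overlapping groups, and was called without resting library 4 (1.48, adjusted p = 0.0237) and on omitting tetramer library 5 (1.59, adjusted p = 0.0239). Tomm7 was at 172 and 210 CPM at rest and 347 and 247 CPM after stimulation (0.63 ± 0.37, adjusted p = 0.201).

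Tomm22, the central receptor, lay at 235 and 150 CPM at rest and 261 and 216 CPM after stimulation (0.31 ± 0.37, adjusted p = 0.566). The paralogue of the pore, Tomm40l, was at 16.6 and 26.5 CPM and at 30.1 and 43.5 CPM (0.77 ± 0.45, adjusted p = 0.210), with the caution that its exons overlap those of Nr1i3. Tomm34, a cytosolic cochaperone and not a subunit of the complex, was the 1 Tomm gene with a fold change below 0, at -0.12 ± 0.38 (adjusted p = 0.841).

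**Figure D3:**
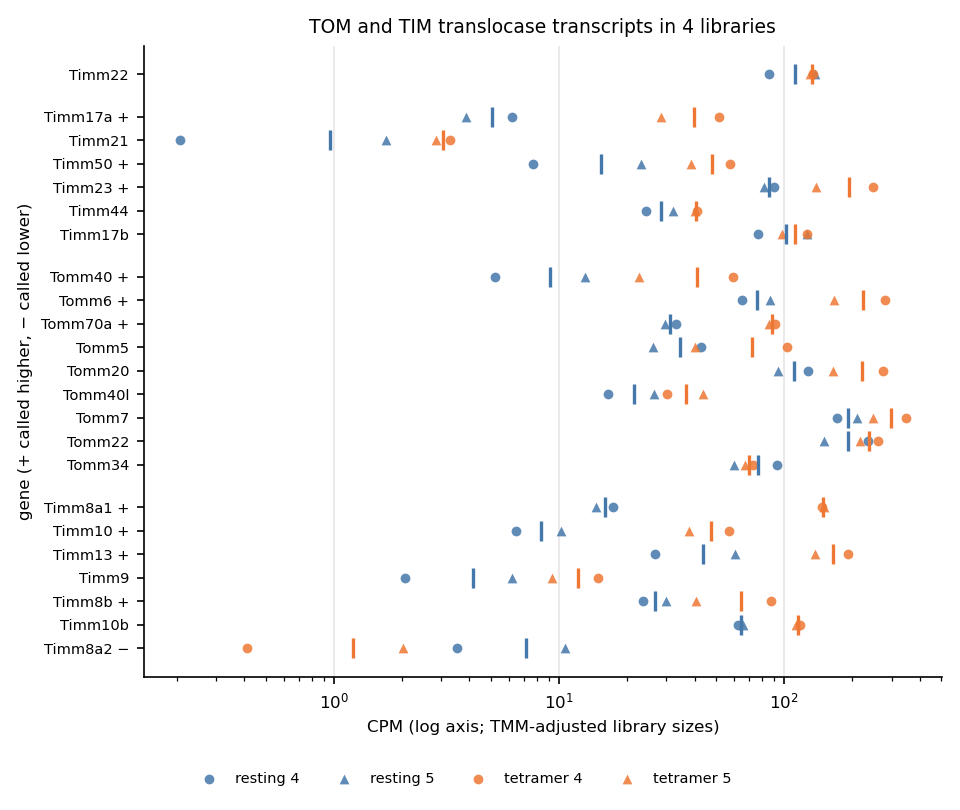
Level in CPM (log axis) by library for the 23 translocase genes, grouped from top to bottom as TIM22, TIM23, TOM and small TIM genes, with blue for resting, orange for tetramer, circles for library 4, triangles for library 5 and vertical bars for group means. Timm8a1 (means 16.0 and 149 CPM) and Timm17a (5.03 and 39.9 CPM) show the widest gaps between groups, and Timm8a2 is the 1 gene with both tetramer libraries below both resting libraries.

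Small TIM proteins are chaperones that carry hydrophobic precursors through the intermembrane space, in hexamers of Timm9 with Timm10 or of Timm8 proteins with Timm13. Of 7 genes 4 rose (57.1%) and 1 fell (14.3%), where 14.3% of all tested genes rose and 12.1% fell. Timm8a1 changed most among translocases. It was at 17.4 and 14.5 CPM at rest and at 148 and 151 CPM after stimulation, and the libraries of each group lay close together. This 9.34-fold rise (3.22 ± 0.41, adjusted p = 2.79e-06) ranged from 3.12 to 3.37 on the log2 scale when single libraries were left out. Its transcript shares sequence with the annotated pseudogene Gm9797, so its counts may include reads of that copy.

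Timm13, its partner in the hexamer, went from 26.7 and 60.5 CPM to 193 and 137 CPM, a 3.78-fold rise (1.92 ± 0.41, adjusted p = 0.00123). Timm10 went from 6.42 and 10.3 CPM to 56.9 and 37.6 CPM, a 5.66-fold rise (2.50 ± 0.49, adjusted p = 0.000492). Both stayed called when any single library was left out, from 1.46 to 2.65 for Timm13 and from 2.19 to 2.90 for Timm10. Timm9, with which Timm10 assembles, was at 2.07 and 6.2 CPM at rest and at 14.9 and 9.3 CPM after stimulation, and was not called (1.55 ± 0.64, adjusted p = 0.0724). Without resting library 5 it was (2.56, adjusted p = 0.00776). Exons of Timm13 overlap those of Tmprss9.

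Timm8b was at 23.6 and 29.9 CPM at rest and at 87.6 and 40.5 CPM after stimulation (1.26 ± 0.44, adjusted p = 0.0340). It was not called without tetramer library 4 (0.61, adjusted p = 0.606), without resting library 4 (1.11, adjusted p = 0.0913), with library totals (0.96, adjusted p = 0.0931) and by limma-voom (adjusted p = 0.0581). Timm10b, which joins the hexamer to the TIM22 complex, moved from 62.6 and 65.6 CPM to 117 and 113 CPM, very even values that were not called (0.84 ± 0.37, adjusted p = 0.0896). Exons of Timm10b overlap those of Gm45799 on the same strand and of Arfip2 on the other, and exons of Timm8b those of Nkapd1.

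Timm8a2, a close relative of Timm8a1, was the only translocase called lower. It had 17 and 50 counts at rest, or 3.52 and 10.7 CPM, and 2 and 10 counts after stimulation, or 0.409 and 2.02 CPM (-2.52 ± 0.78, adjusted p = 0.0184). The groups did not overlap, but omitting resting library 5 gave -1.49 (adjusted p = 0.122) and omitting tetramer library 4 gave -1.78 (adjusted p = 0.344). No stretch of 200 bases at 95% identity was shared between the transcripts of Timm8a1 and Timm8a2. Within a library, where scaling plays no part, the ratio of Timm8a1 to Timm8a2 counts was 4.94 and 1.36 at rest and 360.5 and 74.7 after stimulation.

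The TIM23 complex takes precursors with a cleavable presequence into the matrix and the inner membrane. Of its 6 genes 3 rose and 0 fell (0 also by DESeq2, by limma-voom and at an unadjusted p below 0.05). The 3 are 50%, where 14.3% of all tested genes rose and 12.1% fell. Timm17a, a channel subunit, went from 6.22 and 3.85 CPM to 51.6 and 28.3 CPM, a 7.90-fold rise (2.98 ± 0.53, adjusted p = 0.000189) that stayed called when any single library was left out (2.50 to 3.38). A pseudogene, Gm7180, shares sequence with it. Its paralogue Timm17b, which fills the same place in a second form of the complex, was at 76.9 and 127 CPM at rest and 127 and 97.9 CPM after stimulation (0.14 ± 0.38, adjusted p = 0.814). The ratio of Timm17a to Timm17b counts was 0.0809 and 0.0303 at rest, and 0.407 and 0.289 after stimulation.

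Timm23, the other channel subunit, was at 90.3 and 81.4 CPM at rest and 247 and 139 CPM after stimulation (1.17 ± 0.38, adjusted p = 0.0237). Omitting tetramer library 4 ended its call (0.71, adjusted p = 0.436), as did omitting resting library 5 (1.12, adjusted p = 0.0708) or using library totals (0.87, adjusted p = 0.0882), and 5 pseudogenes share its sequence. Timm50, the receptor that hands precursors to the channel, went from 7.67 and 23.1 CPM to 57.5 and 38.6 CPM, a 3.13-fold rise (1.64 ± 0.49, adjusted p = 0.0148). Omitting resting library 4 (1.07, adjusted p = 0.115) or omitting tetramer library 4 (1.35, adjusted p = 0.192) ended that call.

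Timm44, which tethers the import motor, was at 24.4 and 32.1 CPM at rest and 40.9 and 40.3 CPM after stimulation, not called (0.52 ± 0.43, adjusted p = 0.380). Timm21, which links TIM23 to TOM, had 1 and 8 counts at rest and 16 and 14 after stimulation (1.65 ± 0.79, adjusted p = 0.122), and was called without resting library 5 (3.75, adjusted p = 0.00674). Timm22, the channel that inserts carriers and Timm proteins into the inner membrane, was at 86.0 and 138 CPM at rest and 135 and 130 CPM after stimulation (0.25 ± 0.37, adjusted p = 0.656). Its resting libraries lay on either side of both tetramer values.

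A wider list held import motor, processing and assembly genes that work beside the translocases. It also held chaperones (Hspd1, Hspe1, Hsp90aa1, Hspa8, Dnaja1), proteases (Clpp, Lonp1, Pitrm1), the prohibitins Phb and Phb2, and Timmdc1. Of these added genes Dnaja1, Lonp1, Pitrm1 and Timmdc1 were not called and the others were called higher. The counts below thus cover more than import genes. Of 31 tested 15 rose and 0 fell (0 also by DESeq2, by limma-voom and at an unadjusted p below 0.05). Fewer were called higher without tetramer library 4, as over all genes. The 15 are 48.4% of the list, where 14.3% of all tested genes rose and 12.1% fell. The list was chosen with earlier results of these data known, so this share is a description only. The median log2 fold change of the list was 1.18. Hspd1, the matrix chaperonin that folds imported proteins, went from 123 and 112 CPM to 878 and 1174 CPM, an 8.74-fold rise (3.13 ± 0.40, adjusted p = 3.04e-06). Mtx1, an outer membrane assembly factor, went from 5.39 and 8.33 CPM to 49.9 and 49.2 CPM (2.85 ± 0.49, adjusted p = 0.000111). Immp2l, an inner membrane peptidase, went from 1.04 and 2.14 CPM to 8.80 and 9.10 CPM (2.48 ± 0.70, adjusted p = 0.00999), a call that ended on omitting tetramer library 4 (adjusted p = 0.110) or omitting tetramer library 5 (adjusted p = 0.0833).

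Carriers are described by what they move. The ADP/ATP carriers exchange cytosolic ADP for ATP made in the matrix, and both forms in the table rose. Slc25a5 was at 109 and 74.4 CPM at rest and at 443 and 167 CPM after stimulation, a 3.33-fold rise (1.74 ± 0.42, adjusted p = 0.00346). Without tetramer library 4 it was 0.89 on the log2 scale and not called (adjusted p = 0.302), and 2 pseudogenes share its sequence. Slc25a4 went from 57.4 and 114 CPM to 238 and 232 CPM, a 2.74-fold rise (1.46 ± 0.39, adjusted p = 0.00702), not called without resting library 4 (1.06, adjusted p = 0.0921).

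The ratio of Slc25a5 to Slc25a4 counts did not separate the groups. It was 1.90 and 1.86 in the resting and tetramer libraries numbered 4, and 0.652 and 0.720 in those numbered 5. Slc25a3, which brings in the phosphate for ATP synthesis, was at 507 and 440 CPM at rest and 1138 and 726 CPM after stimulation. That was not called (0.98 ± 0.38, adjusted p = 0.0555), though DESeq2 (adjusted p = 0.0358) and a stricter filter on low counts (adjusted p = 0.0488) did call it.

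The calcium-regulated ATP-Mg/phosphate carriers showed no call. Slc25a25 was at 13.5 and 11.5 CPM against 17.0 and 22.3 CPM (adjusted p = 0.354), and Slc25a24 at 7.67 and 9.83 CPM against 6.14 and 6.68 CPM (adjusted p = 0.609). Slc25a23 was at 15.7 and 7.27 CPM at rest and 4.09 and 3.24 CPM after stimulation (-1.64 ± 0.63, adjusted p = 0.0539), and was called without resting library 5 (-2.07, adjusted p = 0.00903), with library totals (-1.96, adjusted p = 0.0185) and with the stricter filter.

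**Figure D4:**
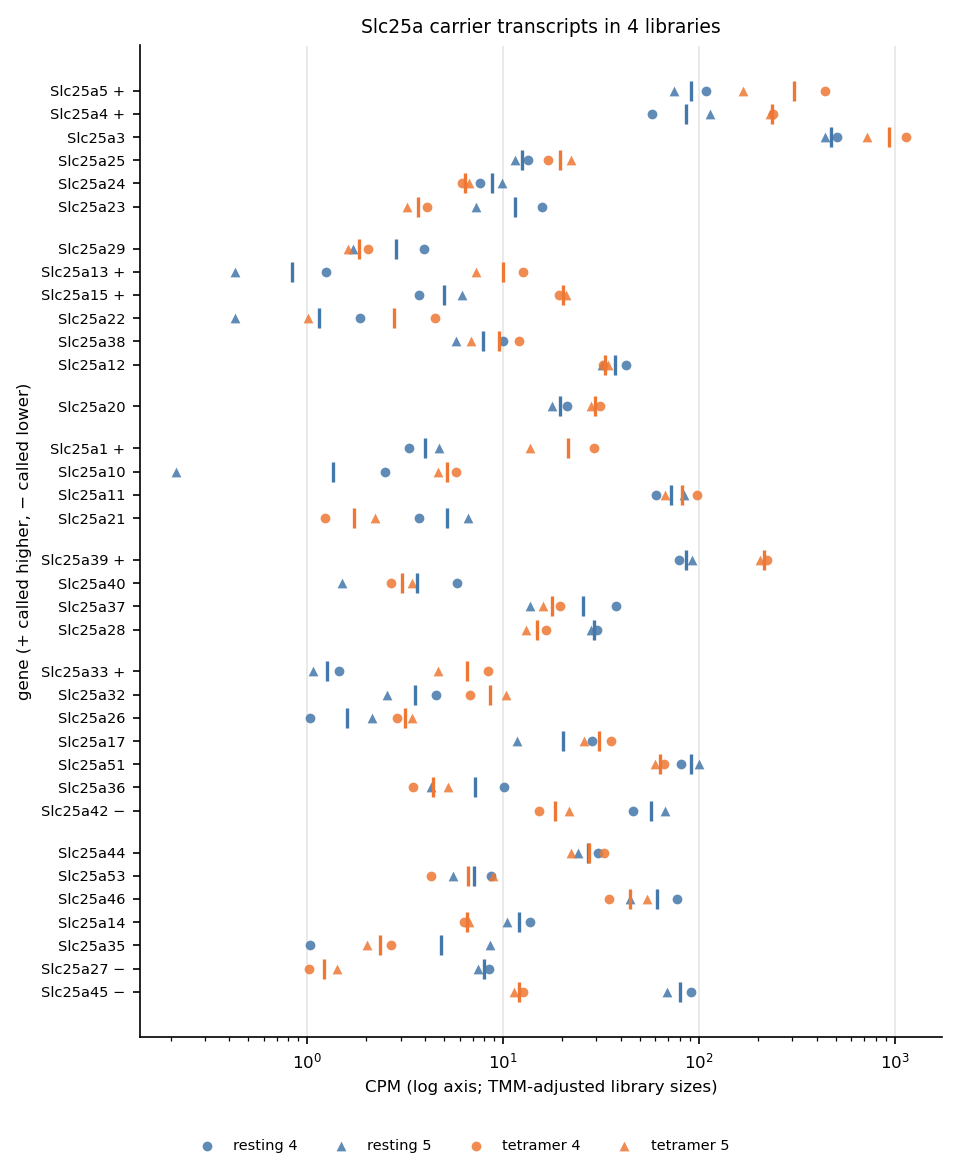
Level in CPM (log axis) by library for 35 of the 36 carrier genes, with colours, symbols and bars as for the translocases. Groups from top to bottom are adenine nucleotide and phosphate, amino acid, carnitine, organic acid, iron and glutathione, other nucleotide and cofactor, and remaining carriers. Slc25a13 (means 0.835 and 9.98 CPM) and Slc25a45 (80.1 and 12.0 CPM) move in opposite directions, and in each the groups are apart.

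Among amino acid carriers 2 of 5 tested rose (40%), where 14.3% of all tested genes rose. Slc25a13, an aspartate/glutamate carrier of the malate-aspartate shuttle, had 6 and 2 counts at rest and 62 and 36 after stimulation, or 1.24 and 0.427 CPM against 12.7 and 7.28 CPM. This was the carriers' largest rise, 11.6-fold (3.53 ± 0.77, adjusted p = 0.00135), with 3.10 and adjusted p = 0.0622 when tetramer library 4 was left out. Slc25a12, the other aspartate/glutamate carrier, was at 42.5 and 31.8 CPM at rest and 32.3 and 34.2 CPM after stimulation (-0.16 ± 0.42, adjusted p = 0.811). The ratio of Slc25a13 to Slc25a12 counts was 0.0293 and 0.0134 at rest and 0.392 and 0.213 after stimulation.

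Slc25a15, the ornithine carrier, went from 3.73 and 6.2 CPM to 19.2 and 21 CPM, a 4.05-fold rise (2.02 ± 0.56, adjusted p = 0.00907). The change was similar on omitting tetramer library 4 (2.10, adjusted p = 0.0755) or omitting tetramer library 5 (1.96, adjusted p = 0.0757), though not called in either case. The glycine carrier Slc25a38 and the glutamate carrier Slc25a22 had overlapping groups and were not called (adjusted p = 0.773 and 0.264). Slc25a22, with 9 and 2 counts at rest and 22 and 5 after stimulation, was called without resting library 4 (2.63, adjusted p = 0.0394).

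Of 4 organic acid carriers 1 rose (25%, a single gene), where 14.3% of all tested genes rose. Slc25a1, which exports citrate to the cytosol where it feeds fatty acid and sterol synthesis, went from 3.31 and 4.70 CPM to 29.1 and 13.8 CPM, a 5.32-fold rise (2.41 ± 0.59, adjusted p = 0.00355). It was 1.79 and not called without tetramer library 4 (adjusted p = 0.199). Slc25a11, the oxoglutarate carrier, had overlapping groups at 60.3 and 84.2 CPM and 97.4 and 67.4 CPM (0.19 ± 0.38, adjusted p = 0.750). Slc25a10, the dicarboxylate carrier, had 12 and 1 counts at rest and 28 and 23 after stimulation (1.91 ± 0.77, adjusted p = 0.0670), with a call without resting library 4 (4.46, adjusted p = 0.00110) and by limma-voom (2.53, adjusted p = 0.0324) where resting library 5 held 1 count.

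Slc25a21, the oxodicarboxylate carrier, was at 3.73 and 6.62 CPM at rest and 1.23 and 2.23 CPM after stimulation (-1.57 ± 0.70, adjusted p = 0.0954), and was called without resting library 4 (-1.91, adjusted p = 0.0275) and with library totals. Slc25a20, the carnitine/acylcarnitine carrier that admits fatty acids for oxidation, lay at 21.1 and 17.7 CPM at rest and at 31.1 and 28.1 CPM after stimulation. The groups did not overlap, but the difference was not called (0.61 ± 0.46, adjusted p = 0.339).

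Among carriers of nucleotides and cofactors 1 of 8 rose and 1 fell, 12.5% each, near the 14.3% and 12.1% of all tested genes. Slc25a33, a pyrimidine nucleotide carrier, had 7 and 5 counts at rest and 41 and 23 after stimulation, or 1.45 and 1.07 CPM against 8.39 and 4.65 CPM. This 5.09-fold rise (2.35 ± 0.72, adjusted p = 0.0169) was not called on omitting tetramer library 4 (1.88, adjusted p = 0.345) or omitting tetramer library 5 (2.72, adjusted p = 0.0609). Slc25a36, the other pyrimidine nucleotide carrier, was at 10.2 and 4.27 CPM against 3.48 and 5.26 CPM (-0.72 ± 0.65, adjusted p = 0.433). The ratio of Slc25a33 to Slc25a36 counts was 0.143 and 0.250 at rest and 2.41 and 0.885 after stimulation. Exons of Slc25a33 overlap those of the antisense gene Gm13068 on the other strand, and a pseudogene, Gm13217, shares sequence with Slc25a36.

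Slc25a42, which brings coenzyme A into the matrix, fell from 46.2 and 67.1 CPM to 15.3 and 21.6 CPM, 3.06-fold (-1.61 ± 0.44, adjusted p = 0.00797). Without tetramer library 4 it was -1.37 and not called (adjusted p = 0.166). Slc25a51, the NAD+ carrier, was at 81.2 and 100.2 CPM at rest and 66.5 and 59.7 CPM after stimulation (-0.52 ± 0.38, adjusted p = 0.311). The carriers of folate and flavin (Slc25a32) and of S-adenosylmethionine (Slc25a26) and the peroxisomal carrier Slc25a17 were not called, with log2 fold changes from 0.61 to 1.25.

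Of the iron and glutathione carriers 1 of 4 rose (25%, a single gene), where 14.3% of all tested genes rose. Slc25a39, which brings glutathione into mitochondria, went from 79.1 and 92.7 CPM to 223 and 206 CPM, a 2.50-fold rise (1.32 ± 0.37, adjusted p = 0.00900). It was 1.28 without tetramer library 4 (adjusted p = 0.0920) and 1.23 without resting library 4 (adjusted p = 0.0501), called in neither. Its paralogue Slc25a40 had 28 and 7 counts at rest and 13 and 17 after stimulation (-0.26 ± 0.70, adjusted p = 0.815). The iron importers, mitoferrins Slc25a37 and Slc25a28, had log2 fold changes of -0.53 ± 0.51 and -0.97 ± 0.47 (adjusted p = 0.463 and 0.128). Slc25a28 lay at 30.0 and 28.2 CPM at rest, above both tetramer values of 16.6 and 13.1 CPM, and was called lower with library totals (-1.27, adjusted p = 0.0436).

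The remaining carriers, a mixed group of uncoupling-like, fission-linked and less defined members, held the largest falls of the family. Slc25a45 fell from 91.6 and 68.6 CPM to 12.7 and 11.3 CPM, 6.66-fold (-2.74 ± 0.44, adjusted p = 5.36e-05), and stayed called when any single library was left out (-2.90 to -2.50). Slc25a27, also known as an uncoupling protein of the nervous system, had 41 and 35 counts at rest and 5 and 7 after stimulation. That 6.43-fold fall, from 8.49 and 7.48 CPM to 1.02 and 1.42 CPM (-2.69 ± 0.71, adjusted p = 0.00658), was not called on omitting tetramer library 4 (-2.46, adjusted p = 0.171) or omitting tetramer library 5 (-2.93, adjusted p = 0.0726).

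Slc25a14, a related uncoupling protein, was at 13.7 and 10.5 CPM at rest and 6.34 and 6.68 CPM after stimulation, not called (-0.89 ± 0.57, adjusted p = 0.256). Slc25a46, an outer membrane protein linked to mitochondrial shape, was at 77.5 and 44.4 CPM at rest and 34.6 and 54.2 CPM after stimulation (-0.46 ± 0.42, adjusted p = 0.438). Slc25a44, Slc25a53 and Slc25a35 had overlapping groups and adjusted p of 0.985, 0.915 and 0.333. Slc25a35, whose exons overlap those of Rangrf, had 5 and 40 counts in its resting libraries and was called lower without resting library 4 (-1.84, adjusted p = 0.0294).

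**Figure D5:**
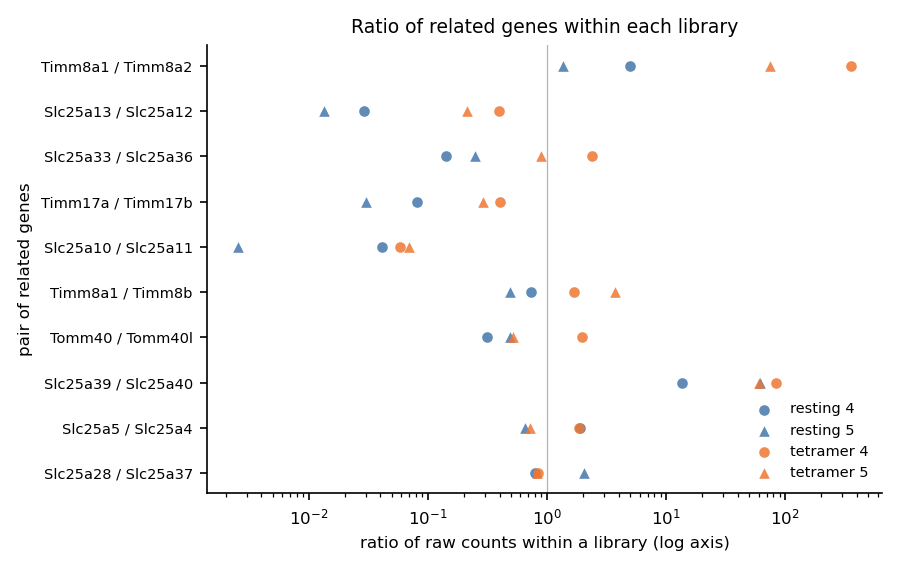
Ratio of the raw counts of related genes within each library on a log axis, with blue for resting, orange for tetramer, circles for library 4 and triangles for library 5. For Timm8a1 / Timm8a2 (4.94 and 1.36 against 360.5 and 74.7) and Timm17a / Timm17b both tetramer libraries lie above both resting libraries, while Slc25a5 / Slc25a4 pairs up by library number (1.90 and 1.86 against 0.652 and 0.720).

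Ratios within a library do not depend on scaling. With 2 libraries a group an exact two-sided permutation test cannot give a p below 0.333, so it tells no more than whether groups overlap. Both tetramer ratios lay above both resting ratios for Timm8a1 / Timm8a2, Timm17a / Timm17b, Timm8a1 / Timm8b, Slc25a13 / Slc25a12, Slc25a33 / Slc25a36, Slc25a10 / Slc25a11 and Tomm40 / Tomm40l, of which the pairs with Timm8a1 were chosen after their values were seen. The change of the mean log ratio was 63.3-fold for Timm8a1 over Timm8a2, 14.6-fold for Slc25a13 over Slc25a12, 7.73-fold for Slc25a33 over Slc25a36 and 6.93-fold for Timm17a over Timm17b. For Slc25a39 over Slc25a40, Slc25a5 over Slc25a4 and Slc25a28 over Slc25a37 the groups overlapped. Of single tested genes 31.6% had both tetramer libraries above both resting libraries and 33.7% had both below. Such a share over pairs of other genes was not computed. In each pair that did not overlap, the numerator was the gene with the larger log2 fold change. The ratios reuse counts given above and are no separate support.

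Other transport genes of the mitochondrial membranes, from a list without Slc25a names, gave 3 higher (13.6%) and 1 lower (4.55%) of 22 tested, against 14.3% and 12.1% of all tested genes, with a median log2 fold change of 0.43. Vdac1, a porin of the outer membrane, went from 10.4 and 12.2 CPM to 74.9 and 42.5 CPM (2.38 ± 0.46, adjusted p = 0.000469). Sfxn1, a serine transporter of the inner membrane, went from 114 and 119 CPM to 442 and 367 CPM (1.79 ± 0.37, adjusted p = 0.000833). Both stayed called when any single library was left out.

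Vdac2, another porin, went from 167 and 126 CPM to 402 and 244 CPM and rose by 1.14 ± 0.38 (adjusted p = 0.0263), a call that ended on omitting tetramer library 4 (0.75, adjusted p = 0.397) or omitting resting library 5 (0.97, adjusted p = 0.125), or with library totals (adjusted p = 0.0979). Sfxn3, a relative of Sfxn1, fell from 74.2 and 106 CPM to 40.7 and 39.6 CPM (-1.16 ± 0.39, adjusted p = 0.0283). Its change was -0.86 without resting library 5 (adjusted p = 0.163), -1.16 without tetramer library 4 (adjusted p = 0.212) and -1.14 without tetramer library 5 (adjusted p = 0.162), called in none of these.

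Because several members moved together, the sequences around their start sites were read from RefSeq windows of build GRCm38.p6, from 250 bases before to 50 after each start. Windows existed for 47 of 59 members. Both strands were searched for CACGTG, the E-box bound by Myc with Max, for CCGGAAG, bound by ETS factors such as GABP, for TGCGCA, the core of the NRF1 site, and for AAGATGG, bound by YY1. Matches of different motifs were counted separately even where they shared bases, and a match is a description of letters, not a shown binding site.

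CACGTG was in a window of 4 of 7 carriers called higher, 2 of 17 carriers not called and 0 of 2 called lower. Among translocases it was in 2 of 10 called higher and 2 of 9 not called. For comparison, 11.6% of the 9084 table genes with a window had it, and 7.15% of all 32851 windows. The stretches below are shown because they hold the E-box before the start of members that rose, with CACGTG in capitals and the rest of the sequence in lower case, 5′ to 3′ on the gene's strand. Timm8a1 has a further match 25 bases after its start and Timm10 has 1 at 29 bases after.
Slc25a13 (chr6:6217273-6217318, minus strand): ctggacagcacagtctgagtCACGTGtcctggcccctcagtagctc
Slc25a15 (chr8:22398329-22398374, minus strand): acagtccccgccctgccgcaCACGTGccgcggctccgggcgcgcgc
Slc25a33 (chr4:149774268-149774295, minus strand): cgtcacggcccggcctccgcCACGTGac
Slc25a1 (chr16:17928433-17928469, minus strand): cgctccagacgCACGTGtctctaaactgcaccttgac
Timm8a1 (chrX:134541881-134541920, minus strand): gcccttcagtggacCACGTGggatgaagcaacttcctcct
In Slc25a33 the E-box begins 8 bases before the start, in Slc25a15 77, in Slc25a13 125, in Timm8a1 236 and in Slc25a1 239 bases before it.

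CCGGAAG was in a window of 8 of 20 translocases and 6 of 27 carriers, where 20.5% of table genes with a window and 8.86% of all windows had it. By call, it was in 4 of 10 translocases that rose, in 3 of 9 not called and in Timm8a2, which fell. The next stretches show it in capitals on either strand, as CCGGAAG or CTTCCGG. They include Timm8a2, which holds the same letters and was called lower on 2 to 50 counts a library. Whether these letters had a part in any change was not tested. Tomm70a, which rose, has matches beginning 80 and 8 bases before its start, and its stretch is not shown. Further matches lie 14 and 17 bases after the start of Timm10 and 11 bases after that of Timm23.
Timm10 (chr2:84826985-84827020, plus strand): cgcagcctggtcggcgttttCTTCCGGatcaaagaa
Timm23 (chr14:32201912-32201958, minus strand): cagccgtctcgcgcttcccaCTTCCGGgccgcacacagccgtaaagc
Timm8b (chr9:50603869-50603900, plus strand): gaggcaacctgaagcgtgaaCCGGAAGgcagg
Timm8a2 (chr14:122034600-122034673, plus strand): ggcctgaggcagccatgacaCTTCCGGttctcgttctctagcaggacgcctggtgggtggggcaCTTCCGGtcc
TGCGCA was in 5 of 20 translocases and 3 of 27 carriers (16.1% of table genes, 7.76% of all windows), and AAGATGG in 3 of 20 and 2 of 27 (8.62% of table genes, 6.34% of all windows).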

How the data were processed

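RNA was measured by sequencing in 4 libraries. The authors deposited raw read counts for each gene symbol, none below 1. Bowtie2, DESeq2 and build mm9 are named in the submitters' processing notes. The counting method, strand included, is not stated there. Tmem138 was dropped, as 1 of its cells is not a number. No coordinates of mm9 are given. Columns were matched to groups by name.

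Counts were tested with edgeR 4.0.16 (quasi-likelihood, TMM, default filter, no block) in R 4.3.3 over all 11312 genes that passed the filter, in a procedure tested on simulated data. Residual degrees of freedom were 2, and the common biological coefficient of variation was 0.322. SE was taken from the F statistic. The CPM and ratios were computed from the counts. Alternatives were DESeq2 1.42.0 and its size factors, limma-voom 3.58.1, library totals, no filter, a filter of 5 CPM in 2 libraries, a block, and leaving out each library. A left-out fit assumes that a lone library varies like the other group.

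The members and lists were chosen with earlier results of these data known. Values in every library were given for called members, fixed pairs of relatives, Slc25a1, Slc25a3, Slc25a20 and the member of highest CPM in each role, and for up to 3 called genes per direction of the 2 wider lists. Other members, the Timm8a1 pairs and the motifs were chosen after values were seen. Shared sequence means at least 200 bases at 95% identity to a transcript of another gene in GENCODE M21. It was found for 17 members, and exons of 22 overlap those of another gene. Values of 1 carrier are not reported here, but it stays in the fit and the counts.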

Additional observations from a re-analysis of the deposited data

How the results depend on the processing

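Counts of calls moved mainly with single libraries. With single libraries left out, genes called higher ranged from 622 to 1629 and lower from 313 to 1488 over all genes, translocases higher from 4 to 12 and lower from 0 to 1, carriers higher from 1 to 7 and lower from 1 to 5, other import genes higher from 6 to 14, and other transport genes lower from 0 to 1. With library totals 2250 genes and 6 carriers were lower, and with the stricter filter, which did not test Timm8a2, 0 translocases were. The members called under all 11 alternatives were Timm8a1, Timm10, Timm13, Timm17a and Slc25a45. No called member changed sign. Members that were not called did, with library totals: Slc25a38 (-0.045), Slc25a11 (-0.10), Slc25a44 (-0.29), Timm22 (-0.034), Timm17b (-0.14) and Tomm22 (-0.0031). By limma-voom Slc25a40 (0.018) and Slc25a44 (-0.0041) did. On leaving out single libraries the log2 fold change of members that were not called ranged from -0.17 to 0.73 for Slc25a38, -0.33 to 0.077 for Slc25a12, -0.083 to 0.47 for Slc25a11, -0.90 to 1.03 for Slc25a40, -1.06 to 0.40 for Slc25a37, -1.19 to 0.046 for Slc25a36 and -0.28 to 0.28 for Slc25a44. It ranged from -0.72 to 0.34 for Slc25a53, -0.81 to 0.012 for Slc25a46, -1.84 to 1.18 for Slc25a35, -0.040 to 0.65 for Timm22, -0.16 to 0.57 for Timm17b and -0.38 to 0.25 for Tomm34. The cause was not tested. Timm21 (1 to 16 counts a library) and Slc25a10 (1 to 28) rest on few counts.

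The labels do not say whether same-numbered libraries share more than a number. Their deviations from the group means correlated at 0.0518 over all genes and 0.133 over members, which does not settle this. With the library number as a block 1693 genes were higher and 1468 lower, 11 translocases higher and 1 lower, and 8 carriers higher and 4 lower, and Slc25a44 was at -0.00085. The block added calls for Slc25a23 (-1.57, adjusted p = 0.0398), Slc25a10 (2.18, adjusted p = 0.0148) and Timm9 (1.63, adjusted p = 0.0336), and ended that of Vdac2 (1.11, adjusted p = 0.0502), all by edgeR.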
